A study of Mus musculus with 19 samples.

Results

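Klrk1, Klrd1, Klrg1, Klrc1 and Klra7 encode lectin-like receptors of the kind first known from natural killer (NK) cells, and the signal of each was followed on oligonucleotide arrays of transferred mouse CD8 T cells. They are 5 of the 8251 genes with a probe set of their own. Every probe set whose gene symbol was one of these 5 was taken, whether bright or dim. That gave 7 of the 12422 probe sets other than array controls, each with 1 symbol: 1 each for Klrd1, Klrc1 and Klrg1, and 2 each for Klrk1 and Klra7. Of the 7, 4 had a mean signal above the level of 26.4 that a probe set needed to enter the main test, as did 8695 probe sets in all.

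The cells were OT-I, CD8 T cells from mice with a transgenic receptor for an ovalbumin peptide, sorted after transfer from what the labels give as ln/spleen of B6 hosts. There were 8 samples from irradiated hosts titled day 5, 4 titled day 40 and 3 titled day 115, set against 4 from unirradiated hosts. In their descriptions, day-5 samples as well as unirradiated hosts were sorted at day 6, and the group names here follow the titles. The descriptions of 2 day-5 samples do not name the cell type. No unirradiated hosts were labelled day 40 or day 115, so at those days the irradiated host and the time since transfer cannot be told apart. Age, sex and which arrays came from separate animals are not given in the sources used here, so p-values measure the spread between these arrays.

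These receptors sit at the cell surface as dimers and adjust how readily a lymphocyte responds. Klrd1 (CD94) pairs with Klrc1 (NKG2A) into an inhibitory receptor for the class Ib molecule Qa-1, which the gene H2-T23 encodes, and inhibitory members of the family recruit phosphatases such as Ptpn6 and Inpp5d. Klrk1 (NKG2D) is an activating receptor for stress-induced ligands and signals through the adapter Hcst, and in mice also through Tyrobp. Klra7 (Ly49G) is an inhibitory receptor for classical class I molecules. Klrg1 is an inhibitory receptor for cadherins that marks late effector CD8 T cells. In the CD8 lineage several of these receptors are known from antigen-experienced cells.

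In the annotation of mouse build GRCm38.p6 all 5 genes lie on chromosome 6. Klrd1 and Klrk1 are next to each other, Klrc1 follows after Klrc3 and Klrc2, Klra7 lies between Klra9 and Klra10 farther along the same cluster, and Klrg1 lies apart from it between Mug2 and M6pr. RefSeq promoters were at hand for 3 of the 5 members, Klrk1, Klrc1 and Klra7, with 4 start sites in all. The stretches of 250 bases before the starts of Klrk1 (chr6:129623865-129624114, minus strand) and Klrc1 (chr6:129678974-129679223, minus strand) are shown. These genes were both higher at day 115 than in unirradiated hosts in the main test, with the limits given below. Each is written 5′ to 3′, and the capitals mark the single match to the RUNX letters. These are ACCACA on one strand and appear as TGTGGT on the other, and both strands were searched.
Klrk1: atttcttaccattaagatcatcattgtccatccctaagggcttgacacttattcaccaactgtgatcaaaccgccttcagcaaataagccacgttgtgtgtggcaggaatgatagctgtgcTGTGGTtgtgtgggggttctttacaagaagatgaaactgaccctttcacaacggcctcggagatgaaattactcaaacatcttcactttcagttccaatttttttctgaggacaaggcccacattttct
Klrc1: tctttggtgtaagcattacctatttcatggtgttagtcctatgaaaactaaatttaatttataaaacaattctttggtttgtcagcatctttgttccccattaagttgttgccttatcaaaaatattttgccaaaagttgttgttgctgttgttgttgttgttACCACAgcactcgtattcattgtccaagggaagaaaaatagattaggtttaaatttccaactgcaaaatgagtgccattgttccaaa
Of 32851 RefSeq promoters of the same length, 14% held the RUNX letters on either strand. The T-box half-site is TCACAC on one strand and thus appears as GTGTGA on the other. It was in neither sequence, against 12.3% of all promoters, and neither set of letters was in the windows of the 2 Klra7 starts. A match describes letters in this window, and the lack of one says only that they are not in it.

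Signals are the deposited linear intensities, and the array medians of log2(signal + 16) lay between 6.03 and 6.12 in the deposited values. Markers of CD8 T cells were read beside the CD8 label, with no level set that would count as a pass. Cd8a, the co-receptor of these cells, had group means between 2079 and 2940, and Cd3e, which every T cell carries, between 226 and 284. For scale, the CD4 T cell marker Cd4 averaged 156 and the B cell marker Cd79a 145 over all arrays. Of 12 tested CD8 T cell identity genes, Cd2 and Thy1 rose at day 115 against unirradiated hosts by the test described below, where 15.1% of all tested probe sets did. Cd2 averaged 1807 ± 141 against 714 ± 109, and Thy1 2102 ± 205 against 998 ± 212 (adjusted p = 0.00249 and 0.00366, limma). The other 10 did not pass. The arrays fell into 2 clusters that cut across the groups. Cluster 1 held 3 arrays of day 5, 2 of day 40 and all 3 of day 115, and cluster 2 held the other 5 of day 5, the other 2 of day 40 and all 4 of unirradiated hosts. The median correlation between arrays of 1 group was 0.983 within a cluster and 0.930 across clusters. No cluster held both day 115 and unirradiated hosts, so their difference has no value within a cluster. A fit with cluster as a term, which rests on the day-5 and day-40 arrays in both clusters, was run beside the main one. In that fit 1 of the 12 CD8 T cell identity genes rose at day 115 against unirradiated hosts.

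Klrd1 was lower at day 115 than in unirradiated hosts, while Klrc1 and Klrk1 were higher, and Klrg1 stayed near the bottom of the scale in every group. Day 115 and unirradiated hosts share no array cluster, and with the cluster as a term none of these 3 differences passed the test (adjusted p = 0.358, 0.195 and 0.166 for Klrd1, Klrc1 and Klrk1, limma). At day 5 no member differed from unirradiated hosts by the test. Differences below are on the scale of log2(signal + 16) from limma with group as the only factor, which understates changes of dim probe sets. A change had an adjusted p under 0.05, by Benjamini-Hochberg over the 8695 probe sets.

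Klrd1, the shared chain of the CD94 receptors, had a day-5 signal of 588 at the lowest, 816 at the median and 1419 at the highest array. At day 40 the signals were 700, 931, 853 and 941, and at day 115 they were 684, 501 and 564. In unirradiated hosts the arrays gave 1252, 1422, 781 and 902. All 3 arrays of day 115 thus lay below all 4 of unirradiated hosts, while day 5 and day 40 overlapped with them. Group means ± SD were 917 ± 284 at day 5, 856 ± 112 at day 40, 583 ± 93.3 at day 115 and 1089 ± 299 in unirradiated hosts. At day 115 the mean was 0.535 times that of unirradiated hosts, and Klrd1 fell by 0.85 ± 0.27 on the log2 scale (SE; adjusted p = 0.0269, limma). The order of the means ran from unirradiated hosts over day 5 and day 40 to day 115, and no neighbours in that order differed by the test. The call was lost without day-115 array 2 (adjusted p = 0.0896) or 3 (0.0718), or without unirradiated array 1 (0.0681) or 2 (0.0742), with limma. With the cluster as a term the difference was -0.47 (adjusted p = 0.358, limma).

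**Figure D1:**
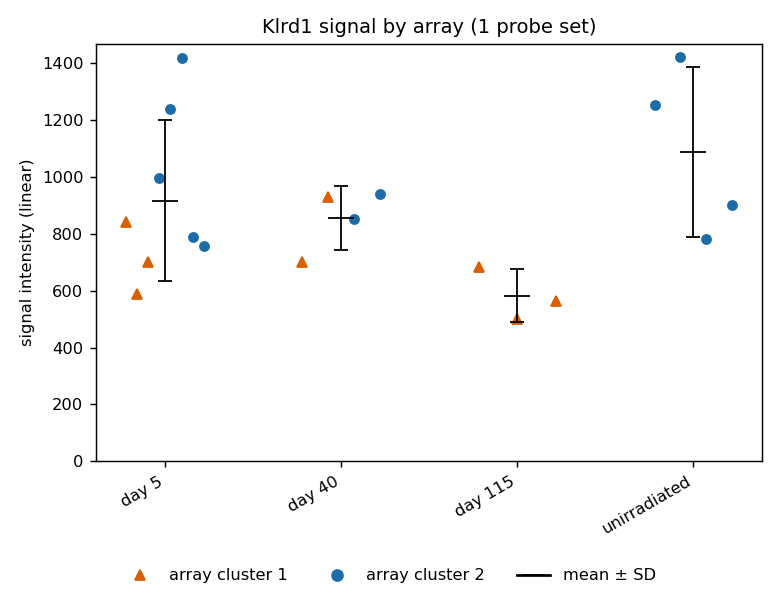
Klrd1 signal (linear, deposited intensity, y axis) of each array by group, with the marker showing the array cluster and the bars the group mean ± SD. The 3 arrays of day 115 sit between 501 and 684, below all 4 of unirradiated hosts, and within day 5 the 3 arrays of cluster 1 average 711 and the 5 of cluster 2 average 1041.

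Within day 5, where the hosts share a label, Klrd1 averaged 711 ± 127 in cluster 1 (n = 3) and 1041 ± 286 in cluster 2 (n = 5). Day 40 gave 816 ± 164 and 897 ± 62.3 in clusters 1 and 2 (n = 2 each). Within cluster 1 alone the day-115 difference from day 5 was -0.28 (adjusted p = 0.490, limma), against -0.60 ± 0.24 over all arrays (adjusted p = 0.0990). Against day 40, day 115 was at -0.54 ± 0.27 (adjusted p = 0.385), with its 3 arrays below the 4 of day 40.

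Klrc1, the inhibitory partner of Klrd1, gave a day-5 signal of 26 at the lowest, 30.6 at the median and 34.1 at the highest array. Its arrays gave 52.4, 37.9, 36.4 and 39.99 at day 40 and 47.9, 37.4 and 48.3 at day 115. Unirradiated hosts gave 31.8, 28.8, 27.6 and 36.5. The 3 arrays of day 115 lay above all 4 of unirradiated hosts and all 8 of day 5, and the 4 of day 40 lay above all 8 of day 5 but overlapped with unirradiated hosts by a narrow margin. Klrc1 rose by 0.36 ± 0.094 at day 115 against unirradiated hosts (adjusted p = 0.0115, limma), and by 0.38 ± 0.084 against day 5 (adjusted p = 0.00676). Day 40 stood at 0.31 ± 0.076 over day 5 with an adjusted p of 0.0502, just short of the threshold. With the cluster as a term the day-40 difference from day 5 was 0.30 (adjusted p = 0.0171) and passed. It also passed without day-5 array 3 or 4 or day-115 array 2 or 3, with adjusted p from 0.0310 to 0.0479 (limma). The day-115 difference from unirradiated hosts held in each of the 19 fits that left out 1 array, and was 0.25 with the cluster as a term (adjusted p = 0.195). Within cluster 1 alone the day-115 difference from day 5 was 0.34 (adjusted p = 0.162).

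Klrk1, the activating receptor NKG2D, was measured by 2 probe sets. On the one that was tested (93679_at), the day-5 signal was 43.5 at the lowest, 50.9 at the median and 58.9 at the highest array. Day 40 gave 67.4, 66.1, 55.9 and 61.2, day 115 gave 61.5, 88.6 and 78.3, and unirradiated hosts gave 47.1, 57.6, 49.5 and 51.5. All 3 arrays of day 115 lay above every array of unirradiated hosts and of day 5. Klrk1 rose by 0.44 ± 0.10 at day 115 against unirradiated hosts (adjusted p = 0.00698, limma) and by 0.46 ± 0.093 against day 5 (adjusted p = 0.0045). Both calls held in each fit that left out 1 array. With the cluster as a term the difference from unirradiated hosts was 0.28 (adjusted p = 0.166), and that from day 5 was 0.36 (adjusted p = 0.018) and passed. Within cluster 1 alone the difference from day 5 was 0.35 (adjusted p = 0.177). At day 40 the difference from unirradiated hosts was 0.22 ± 0.097 (adjusted p = 0.285).

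The second Klrk1 probe set (93678_s_at) lay under the filter, with means of 13.2 ± 1.06 at day 5, 14.9 ± 1.36 at day 40, 17.6 ± 1.40 at day 115 and 13.5 ± 0.417 in unirradiated hosts. In a fit of all 12422 probe sets, where 23.3% passed, it was higher at day 115 than in unirradiated hosts by 0.19 ± 0.041 (adjusted p = 0.00573, limma). The difference from day 5 was 0.20 ± 0.037 (adjusted p = 0.00246), where 15% of all probe sets passed. A signal this low leaves the size of the change uncertain.

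**Figure D2:**
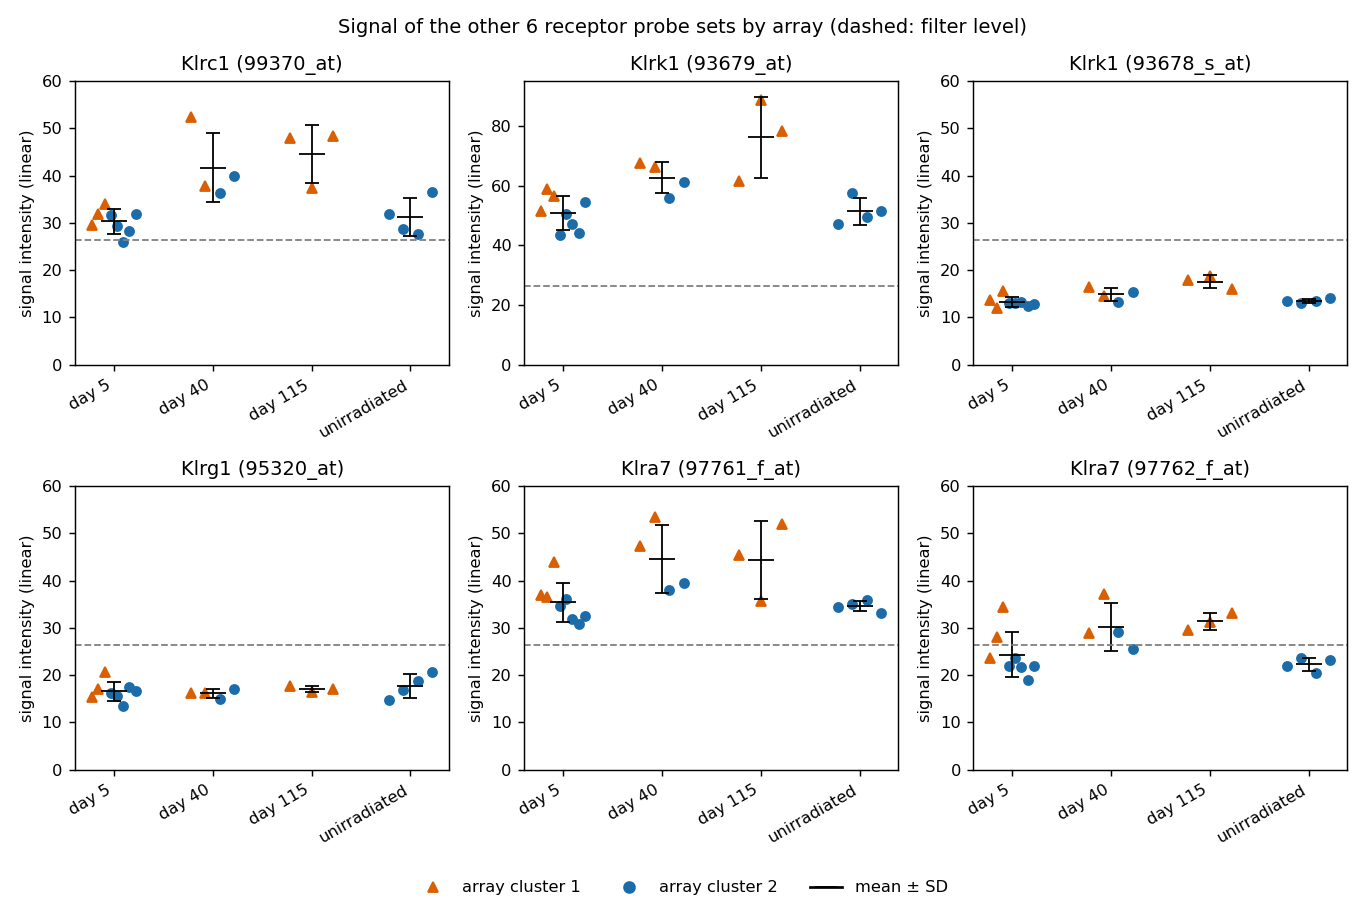
Signal (linear, y axis, one scale per panel; the tested Klrk1 panel runs higher than the others) of each array by group for the other 6 probe sets, with bars for mean ± SD and a dashed line at the filter level. The day-115 arrays stand above the unirradiated hosts for Klrc1, both Klrk1 probe sets and the second Klra7 probe set, and overlap with them for Klrg1 and the first Klra7 probe set.

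Klra7, the Ly49G receptor, was also measured by 2 probe sets, both of a type (_f_at) that can match other members of the closely similar Klra family, so a signal may not be its own. The tested one (97761_f_at) gave 47.3, 53.5, 38 and 39.5 at day 40 and 45.5, 35.6 and 52.1 at day 115, against 34.5, 35, 35.9 and 33.2 in unirradiated hosts. Day 5 ran from 30.8 over a median of 35.3 to 44. All 4 arrays of day 40 lay above all 4 of unirradiated hosts, whereas day-115 array 2 fell among them. The difference from unirradiated hosts was 0.25 ± 0.093 at day 40 (adjusted p = 0.202) and 0.24 ± 0.10 at day 115 (adjusted p = 0.0761, limma), so neither passed. Without day-115 array 2 the day-115 difference was 0.35 (adjusted p = 0.0291), and with the cluster as a term it was 0.041 (adjusted p = 0.835). The second probe set (97762_f_at), whose mean of 26.2 missed the filter narrowly, had means of 24.3 ± 4.8 at day 5, 30.2 ± 5.02 at day 40, 31.4 ± 1.78 at day 115 and 22.3 ± 1.38 in unirradiated hosts. In the fit of all probe sets it was higher at day 115 than in unirradiated hosts by 0.31 ± 0.098 (adjusted p = 0.0299, limma). In that comparison 23.3% of all probe sets passed. Within day 5 this probe set averaged 28.7 ± 5.37 in cluster 1 (n = 3) and 21.7 ± 1.65 in cluster 2 (n = 5). Its day-115 arrays, all of cluster 1, lay within the range of the day-5 arrays of cluster 1, which was 23.6 to 34.3.

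Klrg1, the mark of late effector cells, stayed under the filter in every group. Its arrays ran from 13.6 to 20.6 at day 5, gave 16.2, 16.3, 15 and 17.1 at day 40 and 17.7, 16.5 and 17.1 at day 115, against 14.7, 16.8, 18.8 and 20.7 in unirradiated hosts. All groups overlapped. The day-115 difference from unirradiated hosts was -0.024, with a 95% interval from -0.15 to 0.10 (adjusted p = 0.806 in the fit of all probe sets, limma).

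Of the 4 tested probe sets, 3 passed at day 115 against unirradiated hosts, 2 higher (Klrc1, Klrk1) and 1 lower (Klrd1). Over all tested probe sets 27.9% passed in that comparison, 15.1% higher and 12.8% lower, and 42.7% had groups that did not overlap, as did 3 of the 4, so changes of this kind were common across the array. Against day 5, 2 of the 4 rose at day 115, where 13.9% of all tested probe sets passed and 8.23% were higher. At day 5 against unirradiated hosts none of the 4 passed and none had an unadjusted p under 0.05, with limma, where 0.794% of all passed. At day 40 none passed against unirradiated hosts (1.5% of all) or against day 5 (1.25% of all), although 3 of the 4 had an unadjusted p under 0.05 in each, as did 15.3% of all tested probe sets against unirradiated hosts and 12.1% against day 5. Between day 115 and day 40 none passed and none had an unadjusted p under 0.05, where 0.092% of all passed. With the cluster as a term the count at day 115 against unirradiated hosts was 0 of 4, where 4.42% of all passed. With that term 1 of 4 passed at day 40 against day 5 (7.48% of all) and 2 of 4 at day 115 against day 5 (14.3% of all). Groups that did not overlap made up 1 of 4 at day 40 against unirradiated hosts (13.8% of all), 1 of 4 at day 40 against day 5 (2.23%), 2 of 4 at day 115 against day 5 (10.9%) and 1 of 4 at day 115 against day 40 (8.4%). The comparisons with unirradiated hosts share those 4 arrays, and so their values are not independent of each other.

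**Figure D3:**
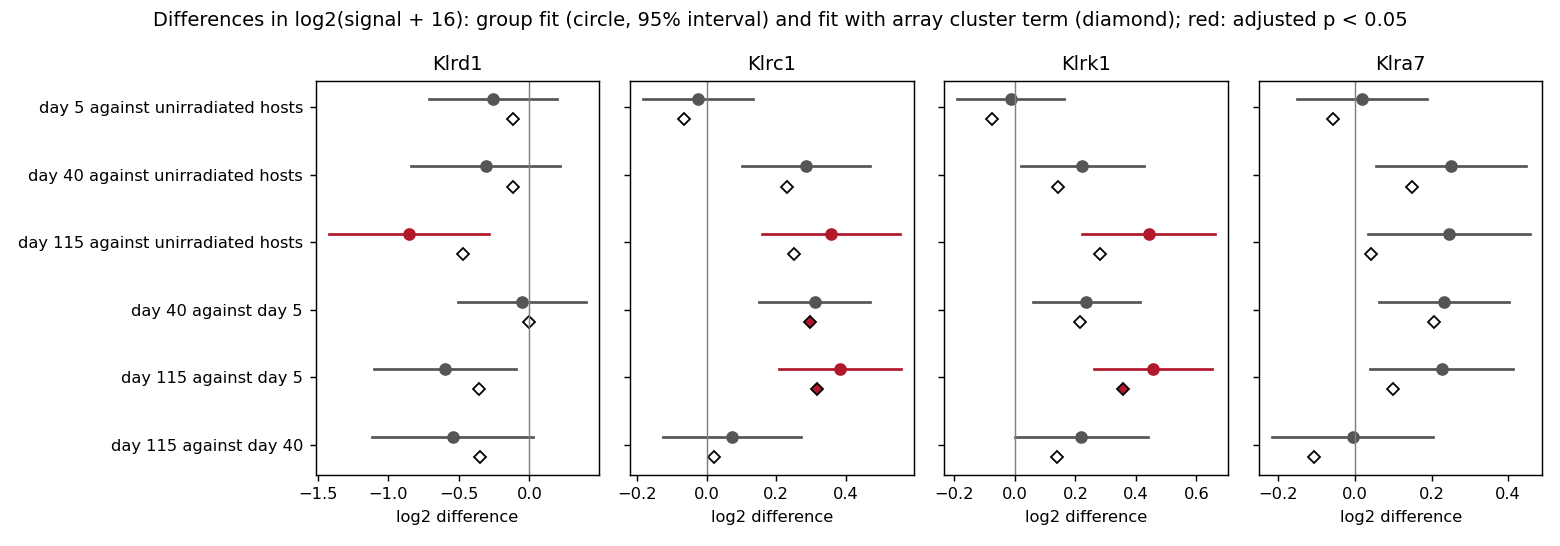
Difference of log2(signal + 16) (x axis) of each tested member probe set in the comparisons, from the fit with group alone (circle with 95% interval) and with the array cluster as a term (diamond), in red where the adjusted p was under 0.05. At day 115 against unirradiated hosts the circles of Klrk1 and Klrc1 lie at 0.44 and 0.36 and that of Klrd1 at -0.85, and every diamond lies nearer to 0.

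Markers of other cells were read beside these changes. The summed signal of the 9 genes listed as NK cell markers that were on the array ran from 314 to 465 at day 5, 288 to 363 at day 40 and 350 to 372 at day 115, against 323 to 347 in unirradiated hosts. Its defining member Ncr1, the NK receptor NKp46, had group means of 12.3 at day 5, 12.4 at day 40, 17.4 at day 115 and 14.1 in unirradiated hosts, all under the filter. Itga2, the NK integrin CD49b, was under it in all 4 group means as well. Of 5 tested genes on that NK list, Cma1 rose and Ncam1 fell at day 115 against unirradiated hosts, where 15.1% of all tested probe sets rose and 12.8% fell. The other 3 did not pass, and how well each listed gene marks NK cells was not tested. Neither call passed with the cluster as a term (adjusted p = 0.639 for Cma1 and 0.139 for Ncam1, limma). The Cma1 call was also lost without day-115 array 2 (adjusted p = 0.0553) or 3 (0.0583), and the Ncam1 call without day-115 array 3 (0.118) or unirradiated array 3 (0.0696) or 4 (0.0507). Cma1 read 76.2 to 78.8 at day 115 and 75.7 to 79.1 in the 3 day-5 arrays of cluster 1, against 51.1 to 60.9 in the 5 day-5 arrays of cluster 2. The sum over 13 B cell markers was 1423 to 3011 at day 5, 1767 to 3478 at day 40 and 2841 to 4405 at day 115, all above the 1204 to 1410 of unirradiated hosts. Within day 5 this sum was 2376 to 3011 in the 3 arrays of cluster 1 and 1423 to 1591 in the 5 of cluster 2. At day 115 4 of its 10 tested genes rose, where 15.1% of all tested probe sets did, and with the cluster as a term 1 did. Ighm, the immunoglobulin heavy chain, made up most of the sum's rise, at 1944 ± 319 at day 115, against 500 ± 41.6 in unirradiated hosts. H2-Aa (431 ± 308 against 90.0 ± 49.4), Cd74 (285 ± 161 against 80.7 ± 3.66) and H2-Ab1 (186 ± 62.6 against 72.5 ± 15.7) rose too (adjusted p = 0.00847, 0.00712 and 0.00523, limma). The sum over 15 myeloid markers was 1837 to 3345 at day 5, 1763 to 3348 at day 40 and 1232 to 2044 at day 115, against 2712 to 3517 in unirradiated hosts. At day 115 1 of its 11 tested genes fell, the protease gene Ctss, where 12.8% of all tested probe sets fell. The other 10 did not pass, and the median difference of the 11 was -0.08. Ctss averaged 1015 ± 362 at day 115, against 2459 ± 319 in unirradiated hosts, and its call was lost without day-115 array 2 (adjusted p = 0.115, limma), unirradiated array 1 (0.0551) or 4 (0.0525), or with the cluster as a term (0.755). Of 3 tested gamma-delta and NKT cell markers, Blk rose at day 115 against unirradiated hosts, where 15.1% of all tested probe sets did. It averaged 64.2 ± 30.6 against 25.6 ± 3.26 (adjusted p = 0.00437, limma). The other 2 did not pass, and with the cluster as a term none did. None of 3 tested CD4 T cell markers passed against unirradiated hosts. The part of these other cells in the receptor signals was not tested, and in bulk samples fewer cells with a transcript and less of it per cell cannot be told apart.

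Among 40 other lectin-like receptors listed, 7 had a probe set of their own and 4 were tested. Of the 4, 1 rose and 1 fell at day 115 against unirradiated hosts, where 15.1% of all tested probe sets rose and 12.8% fell. At day 5 1 rose, where 0.794% of all passed. Klra3 (Ly49C), an inhibitory class I receptor measured by an _f_at probe set, gave 48.4, 38.1 and 35.1 at day 115, against 18.5, 25.9, 20.3 and 22.5 in unirradiated hosts. Its lowest arrays of day 5 and day 40, 28.4 and 29.7, also lay above every unirradiated array. Klra3 rose by 0.58 ± 0.13 at day 115 (adjusted p = 0.0053, limma) and by 0.45 ± 0.10 at day 5 (adjusted p = 0.0486), and day 40 stood at 0.48 (adjusted p = 0.0524). The day-5 call was lost in 16 of the 19 fits that left out 1 array, with adjusted p up to 0.184. Within cluster 2 alone, which holds 5 arrays of day 5 and all of unirradiated hosts, the day-5 difference was 0.34 (adjusted p = 0.0136). Klrb1b, an inhibitory receptor of the NKR-P1 family, averaged 89.7 ± 22 at day 115, against 131 ± 11.8 in unirradiated hosts, and fell by 0.50 ± 0.15 (adjusted p = 0.0222). That call was lost without day-115 array 3 (adjusted p = 0.138) or unirradiated array 3 (0.0590). With the cluster as a term the day-115 differences were 0.29 for Klra3 (adjusted p = 0.175) and -0.23 for Klrb1b (adjusted p = 0.392). A tested probe set shared by Klra9 and Klra3 overlapped between groups in every comparison, at 0.088 at day 5 (adjusted p = 0.610) and 0.20 at day 115 (adjusted p = 0.149) against unirradiated hosts. One shared by Klrb1b and Klrb1c stood at 0.054 at day 115 (adjusted p = 0.739). A second probe set shared by Klra9 and Klra3 was under the filter, with a mean of 23.5 over all arrays, and so was not tested. It ran from 14.17 to 17.26 in unirradiated hosts. Its lowest arrays of day 5, day 40 and day 115, at 19.66, 18.15 and 24.76, lay above every unirradiated array. None of these shared probe sets can be resolved between its genes.

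**Figure D4:**
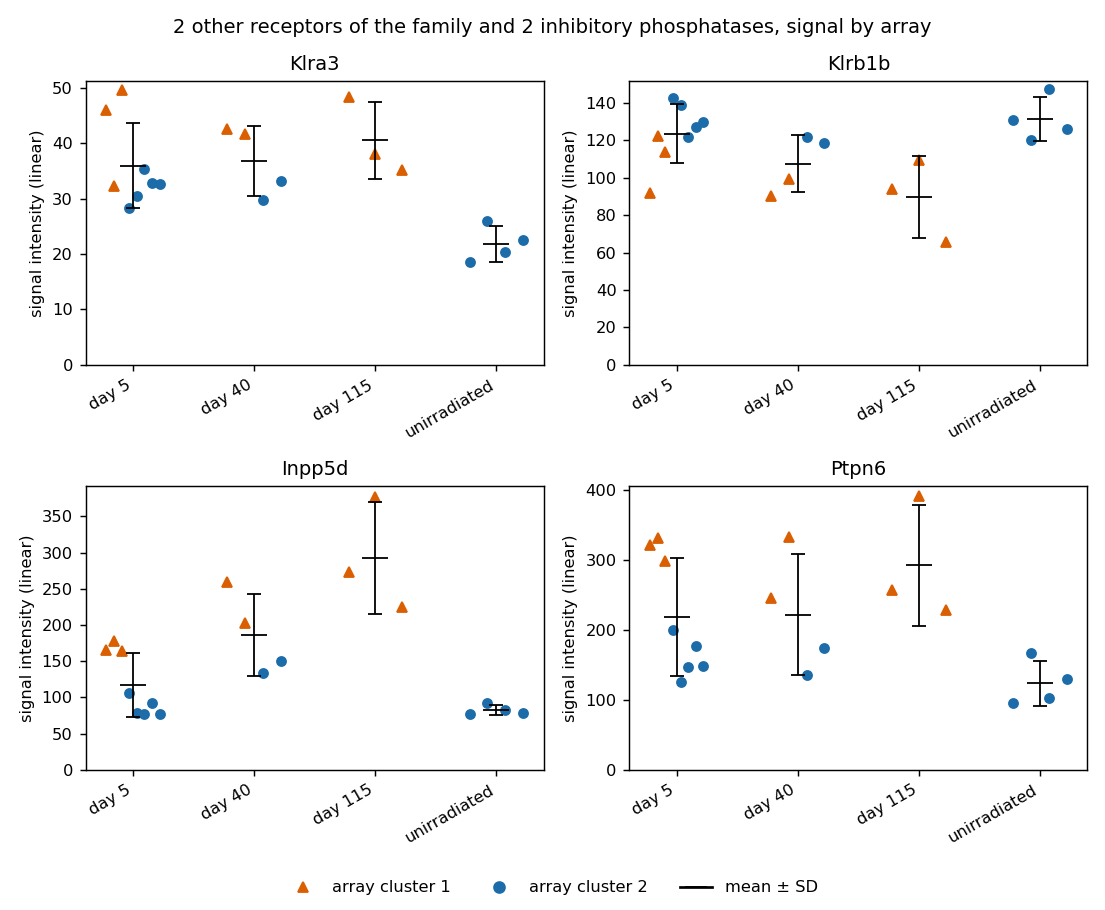
Signal (linear, y axis, own scale per panel) of each array by group for 2 related receptors, Klra3 and Klrb1b, and for Inpp5d and Ptpn6, phosphatases that inhibitory receptors recruit, with bars for mean ± SD. Klra3 is above all unirradiated arrays in every irradiated array, and the 3 arrays of day 115 for Inpp5d lie between 225 and 377, against 77.2 to 91.7 in unirradiated hosts.

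The listed adapters and signalling genes had 21 tested members of 29. At day 115 against unirradiated hosts 8 rose, 1 fell and 12 did not pass, with a median difference of 0.31 against 0.012 over all tested probe sets, of which 15.1% rose and 12.8% fell. None passed at day 5 or day 40. With the cluster as a term 2 rose and none fell at day 115, where 4.42% of all passed. Hcst, the adapter of Klrk1, had no probe set of its own, and Tyrobp averaged 47.3 ± 17.3 at day 5, 39.5 ± 12.7 at day 40, 48.9 ± 5.64 at day 115 and 36.1 ± 2.75 in unirradiated hosts (day-115 difference 0.31 ± 0.21, adjusted p = 0.278, limma).

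Inpp5d (SHIP1), a lipid phosphatase that inhibitory receptors recruit, averaged 292 ± 77.3 at day 115, against 82.5 ± 6.61 in unirradiated hosts, and rose by 1.62 ± 0.28 (adjusted p = 0.00122, limma). It passed with the cluster as a term too, at 0.84 (adjusted p = 0.0156). Ptpn6 (SHP-1), the tyrosine phosphatase of the same receptors, averaged 292 ± 86.4 at day 115, against 124 ± 32.2 in unirradiated hosts, and rose by 1.13 ± 0.34 (adjusted p = 0.0199). Its call was lost without day-115 array 2 (adjusted p = 0.0888) or unirradiated array 1 (0.0514), and the value with the cluster term was 0.23 (adjusted p = 0.595). Of the catalytic subunits of phosphoinositide 3-kinase, which acts below Hcst, Pik3cd rose by 1.65 ± 0.31 (660 ± 225 at day 115, against 192 ± 9.0 in unirradiated hosts; adjusted p = 0.00189). Pik3ca fell by 1.26 ± 0.32 (95.4 ± 24.0 at day 115, against 249 ± 45.6 in unirradiated hosts; adjusted p = 0.00974). With the cluster term they stood at 0.96 (adjusted p = 0.0525) and -0.39 (adjusted p = 0.315).

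The listed ligands had 5 tested genes of 17, of which 2 rose at day 40 and 2 rose and 1 fell at day 115 against unirradiated hosts (1.5% and 27.9% of all tested probe sets passed), and H2-T23 was not among those with a probe set of their own. H2-D1 and H2-K1, classical class I heavy chains measured by _f_at probe sets that may match other class I genes, rose at day 40 by 0.72 ± 0.15 and 0.57 ± 0.12 (adjusted p = 0.0223 and 0.0197, limma). Each of these day-40 calls was lost in 5 of the 19 fits without 1 array, with adjusted p up to 0.0833 and 0.0861. They also rose at day 115, by 0.60 ± 0.17 (adjusted p = 0.0142; 0.0588 without day-115 array 1) and by 0.51 ± 0.13 (adjusted p = 0.0102). B2m, their light chain and that of Qa-1, fell at day 115 by 0.94 ± 0.30 (adjusted p = 0.0255; 3724 ± 1823 at day 115, against 6435 ± 267 in unirradiated hosts). Without day-115 array 2, where it was 1629, the B2m difference was -0.43 (adjusted p = 0.166). The other 2 tested ligands, Cdh1 and Cdh4, did not pass, at 0.041 and -0.059 on the log2 scale. With the cluster term no ligand passed at day 115, and H2-D1 and H2-K1 passed at day 40 at 0.54 and 0.50 (adjusted p = 0.0133 and 0.0181).

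The listed transcription regulators and cytokine receptors had 20 tested genes of 36. Against unirradiated hosts 1 fell at day 5 (0.794% of all tested probe sets passed), 3 rose and 1 fell at day 40 (1.5% of all), and 7 rose and 2 fell at day 115 (27.9% of all). Il18r1 and Il18rap, the chains of the receptor for interleukin-18, were the members with a rise at both late times that also passed with the cluster term. Il18r1 averaged 421 ± 89.2 at day 40 and 357 ± 47.2 at day 115, against 140 ± 34.8 in unirradiated hosts (1.5 ± 0.21 and 1.29 ± 0.23; adjusted p = 0.000548 and 0.00134, limma). Il18rap averaged 149 ± 27.7 at day 40 and 208 ± 23.2 at day 115, against 63.8 ± 2.18 in unirradiated hosts (1.04 ± 0.16 and 1.48 ± 0.18; adjusted p = 0.00185 and 4.37e-05). Jak3, the kinase of the common gamma chain, rose at day 115 by 1.58 ± 0.37 (384 ± 174 at day 115, against 110 ± 1.69 in unirradiated hosts; adjusted p = 0.00614). Ets1, a transcription factor needed for NK cell development, fell by 1.75 ± 0.43 (56.3 ± 26.2 at day 115, against 216 ± 30.7 in unirradiated hosts; adjusted p = 0.00842). With the cluster term these were 0.62 (adjusted p = 0.194) and -1.15 (adjusted p = 0.175).

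Across the 19 arrays the members did not move as 1 block. The correlation of log2 signal was -0.63 between Klrd1 and Klrk1 and -0.53 between Klrd1 and Klrc1, and 0.69 between Klrc1 and Klrk1. After group means were taken out, the last of these was 0.073, and Klrd1 with Klrk1 was -0.41. The 2 probe sets of Klra7 correlated at 0.85, and 0.71 within groups, and those of Klrk1 at 0.77 and 0.25. These values describe arrays that share clusters and a common scaling, and have no p.

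Of 6408 other genes, the one whose pattern was most like Klrd1 was Cd48, a surface glycoprotein that binds the receptor Cd244 on NK cells (Pearson r = 0.94 over 19 arrays, 0.96 within groups). Cd48 averaged 1294 ± 377 at day 5, 1076 ± 95 at day 40, 794 ± 161 at day 115 and 1241 ± 200 in unirradiated hosts. Scp2, Dnajb6, Mbnl1 and Xlr4a followed, at r from 0.90 to 0.92. The genes most like Klrc1 were Parp6, Pdxdc1, Tbc1d1, Galnt10 and Brap (0.87 to 0.90), and those most like Klrk1 were Relb, Mapre2, Ifitm10, Tmem37 and Abhd14a (0.89 to 0.91). For Klra7 they were Il15ra, a chain of the interleukin-15 receptor, then Ly6d, Ttc7b, Lrpap1 and Rad52 (0.84 to 0.86).

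**Figure D5:**
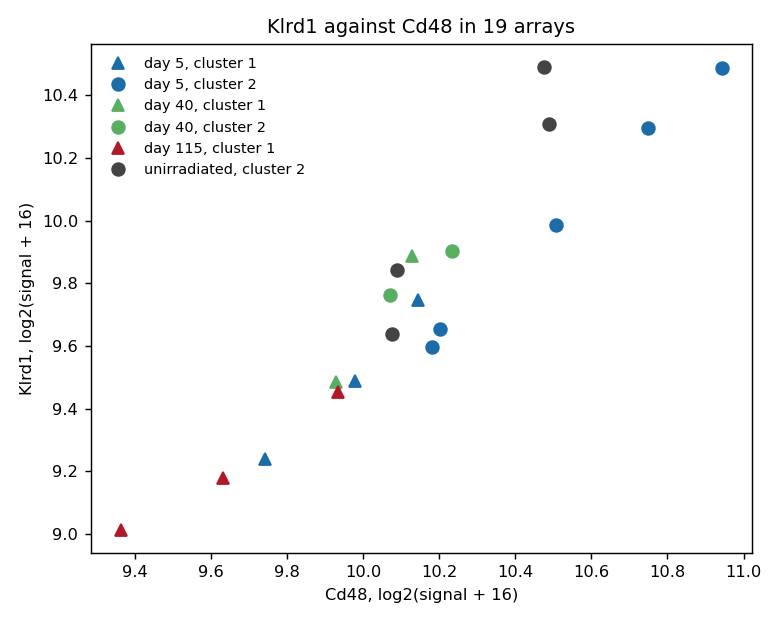
Log2(signal + 16) of Klrd1 (y axis) against that of Cd48 (x axis), 1 point per array, coloured by group with the marker showing the array cluster. The arrays rise together (r = 0.94), with the 3 of day 115 toward its lower end and day-5 array 6 at its upper end.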

How the data were processed

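Total RNA of 19 samples was measured on oligonucleotide arrays. The deposited table gave 1 linear intensity per probe set and array; how the authors made it was not given in the labels or files, and nothing more was done to its scale. Symbols came from the platform annotation (10833 probe sets with 1 symbol, 396 with several, 1193 with none). The 66 control probe sets were left out. Log2(intensity + 16) was the input of 1 limma model (version 3.58.1, under R 4.3.3) over all arrays, with group as the factor and an intensity trend. P-values were adjusted by Benjamini-Hochberg over the 8695 probe sets whose mean was above the 30th percentile (26.4). Members under it were read from a fit of all 12422. The code was tested on simulated data.

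Array clusters came from average linkage on 1 minus the Pearson correlation. Alternatives were other pseudocounts and filters, quantile normalisation, the 2 groups only, the cluster as a term or within clusters, a replicate block, and each array left out. Every member was reported, with up to 4 genes per list of largest change past the threshold against unirradiated hosts, Hcst and Tyrobp, and the 5 genes most like each tested member. Members and lists were chosen with earlier results of these data known. The number of arrays limits the precision.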

Additional observations from a re-analysis of the deposited data

Results flagged for a closer look

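Klra7 on day-5 array 3 stood apart from its group: the tested probe set read 43.96 there, the highest of 8 arrays, with the next at 36.94 and the lowest at 30.75, a gap of 0.531 of the range. It was the only such case among the 21 combinations of member probe set and group that were checked, and chance gives about 1 in 20. The second Klra7 probe set was also highest on that array, at 34.33. So were Klrc1 (34.1), the second Klrk1 probe set (15.51) and Klrg1 (20.59), each by a smaller gap for its range. Klrd1 and the tested Klrk1 probe set were not highest there. The array lies in cluster 1, and its place was not traced to a cause.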

How the results depend on the processing

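The member count at day 115 against unirradiated hosts was 3 of 4, where 27.9% of all tested probe sets passed. It became 5 of 7 without the filter (23.3% of all) and 0 with the array cluster as a term (4.42% of all). When 1 array was left out it ranged from 2 to 3. At day 40 against day 5 the count was 0, where 109 of all 8695 tested probe sets passed. It became 1 (Klrc1) with a pseudocount of 1 (113 of all), quantile normalisation (132) and the cluster term (650). A filter on mean log2 signal (110 of all), which was chosen after seeing the data, also gave 1. The count ranged from 0 to 1 when 1 array was left out. At day 115 against day 5 the count was 2, where 1205 of all 8695 passed. It became 1 with a filter at the 50th percentile (1024 of 6211 passed), which leaves Klrc1 untested. That count became 0 within cluster 1 (111 of 8695 passed) and 0 with a replicate block (198 of 8695). When 1 array was left out it ranged from 2 to 3. Apart from Klrc1 being left untested by that filter, the cause of these moves was not tested.

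Differences near 0 changed sign. With the replicate block Klrc1 and Klrk1 at day 5 against unirradiated hosts were each 0.022, and Klrd1 at day 40 against day 5 was 0.15. For Klra7 at day 5 against unirradiated hosts the value was -0.058 with the cluster term and -0.044 within cluster 2. Within cluster 1, Klrd1 at day 40 against day 5 was 0.19 and Klrc1 at day 115 against day 40 was -0.0093, and quantile normalisation put Klra7 at day 115 against day 40 at 0.014. With 1 array left out, the values at day 5 against unirradiated hosts ran from -0.062 to 0.028 for Klrc1, -0.045 to 0.029 for Klrk1 and -0.014 to 0.037 for Klra7, from -0.13 to 0.045 for Klrd1 at day 40 against day 5, and from -0.10 to 0.10 for Klra7 at day 115 against day 40.

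The replicate numbers showed no clear pairing of the arrays. Correlations of same-numbered arrays of different groups ran from -0.67 to 0.76, with a median of 0.067. For arrays of other numbers they ran from -0.80 to 0.74, with a median of -0.013. Of 15 arrays, 2 were most like an array of their own number. In the irradiated groups the cluster 1 arrays carry the lowest numbers, so the replicate block overlaps with the cluster. The block moved the count of all probe sets past the threshold to 1707 from 69 at day 5, to 407 from 130 at day 40, to 35 from 109 for day 40 against day 5, to 198 from 1205 for day 115 against day 5, and to 3 from 8 for day 115 against day 40. The cluster term gave 140 at day 5, 384 (from 2427) at day 115 and 650 for day 40 against day 5, and 17 for day 115 against day 40. The 2 groups alone gave 40, 273, 46, 658 and 0 at day 5, at day 40, day 40 against day 5, day 115 against day 5, and day 115 against day 40. Day 115 against day 5 gave 1865 without the filter, and day 115 against day 40 gave 63 without it, 4 with the 50th percentile and 12 with quantile normalisation.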
